A study of Mus musculus with 15 samples.

Results

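The contractile genes of myofibroblasts were described in mouse fibroblasts from 5 sources: the actins Acta1, Acta2 and Actg2, the actin-binding proteins Tagln, Cnn1, Cnn2 and Cald1, the tropomyosins Tpm1 and Tpm2 and the myosin light chain Myl9. The members were the probes whose gene name, or symbol in brackets in the probe description, was 1 of these 10 genes. This gave 16 of the 41174 probes on the array, for 10 of its 32992 gene names: 3 for Acta2, 2 each for Tagln, Tpm1, Tpm2 and Cald1, and 1 for each other gene. No measured value entered the choice of a probe within a gene, but the 10 genes were chosen with earlier results of these data known. Shares of the members set against all probes are therefore descriptions and not tests of a blind set. All 16 were well above background in the Cy5 channel on all 15 arrays, carried no outlier flag, and were among the 38522 probes tested.

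Each source was hybridised to 3 Agilent 2-colour arrays, with the fibroblast RNA in Cy5 and Universal Mouse Reference RNA, a pooled standard, in Cy3. The sources were NSF, TAF-tib6, TAF-el4, TAF-tib42 and TAF-tib48. From the title of the series, TAF is read here as fibroblasts associated with tumours, and el4 matches the name of the mouse lymphoma line EL4; NSF and the tib names are not spelled out by the labels and are left as they stand. Per the labels, NSF and TAF-tib6 (6 arrays) were sensitive and TAF-el4, TAF-tib42 and TAF-tib48 (9 arrays) resistant, which the title ties to treatment against VEGF. Strain, age, culture and treatment of the cells are not given in the labels used here, and neither is the origin of the 3 RNAs of a source, so each p-value reflects spread from array to array that could be technical alone.

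Myofibroblasts are fibroblasts that carry contractile bundles of actin and myosin, the stress fibres, and alpha smooth muscle actin, the product of Acta2, is their usual marker. Calponin, transgelin, caldesmon and tropomyosin sit along the actin filament, and phosphorylation of the regulatory light chain by Mylk starts the pull of myosin on it. The genes are classic targets of serum response factor (Srf), which binds a promoter element called the CArG box together with myocardin-family cofactors, and TGF-beta is the best known inducer of the state.

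As the members share this route of control, their promoters were searched for the element that names it, and the matching stretches are shown here because they mark which members carry it close to the start site. RefSeq promoters on build GRCm38.p6 were in the table for 8 of the 10 genes, and 250 bases upstream of each start were read. Actg2 and Tagln had no promoter there and were not searched, so nothing is said of their elements. A CArG box is a pair of C, a run of A or T and a pair of G, and reads as a CArG box on both strands; a CArG-like element has 1 G or C within the run, so no stretch is both. Of 32851 promoters in the table, 1.47% held a CArG box, 7.24% a CArG-like element and 8.59% either. Acta1, Cnn2 and Myl9 held a CArG box each, and Acta1, Myl9 and Acta2 held CArG-like elements. Capitals mark the elements, and 20 bases on either side are shown, 5′ to 3′ on the strand of the gene.
Acta1, chr8:123894819-123895000, minus strand: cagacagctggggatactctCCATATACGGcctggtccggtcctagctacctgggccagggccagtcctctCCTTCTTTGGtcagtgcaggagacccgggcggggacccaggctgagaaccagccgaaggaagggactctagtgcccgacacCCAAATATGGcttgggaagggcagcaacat
Acta2, chr19:34255378-34255477, minus strand: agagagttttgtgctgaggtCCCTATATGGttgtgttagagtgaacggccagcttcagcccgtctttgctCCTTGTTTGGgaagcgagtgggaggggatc
Cnn2, chr10:79988524-79988573, plus strand: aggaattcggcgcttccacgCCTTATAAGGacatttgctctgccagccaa
Myl9, chr2:156775283-156775394, plus strand: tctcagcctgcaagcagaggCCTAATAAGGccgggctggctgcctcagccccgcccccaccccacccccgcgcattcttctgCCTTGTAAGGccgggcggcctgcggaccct
The CArG boxes began 73 bases upstream of the start of Acta1, 56 upstream of Cnn2 and 161 upstream of Myl9. The CArG-like elements began at 205 and 154 bases in Acta1, 84 and 34 in Acta2 and 99 in Myl9. The windows of Cnn1, Tpm1, Tpm2 and both Cald1 promoters held neither. A match is a description of letters and not a measured site.

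The arrays had median Cy5 signals of 173 to 283 on backgrounds of 52 to 56, and precision is limited by their number. Log2 ratios correlated at 0.960 to 0.987 between arrays of a source and at 0.840 to 0.948 between sources. All 15 fibroblast markers were well above background on every array, although this flag is lenient (89.6% to 95.8% of probes per array). Their levels were not alike: all but Col1a1, Col1a2 and Vim were called among sources (limma F-test, adjusted p = 1.9e-12 to 0.047). Those 3 had Cy5 signals less background of 65220 to 65250 on every array. Dcn ran from -0.01 in NSF to -3.03 in TAF-el4, and Twist1 from 1.55 in NSF to -0.51 in TAF-tib48. Postn was 5.09 in TAF-tib6 against 3.79 to 3.91. Of 11 smooth muscle and pericyte markers, all 11 were well above background in each source, and their summed Cy5 signal was 3640 to 5093 in NSF, 2778 to 3171 in TAF-tib6, 2662 to 4438 in TAF-el4, 2708 to 3402 in TAF-tib42 and 3430 to 5692 in TAF-tib48. Of these, Myh11, Smtn, Lmod1, Rgs5, Cspg4, Mcam and Notch3 were called among sources (limma F-test, adjusted p = 8.7e-12 to 9e-05). Myocd, Kcnj8, Abcc9 and Des were not (adjusted p = 0.13 to 0.98). By this test 43.4% of all probes tested were called. The muscle marker desmin (Des) lay at log2 ratios of -0.72 to -0.58 (adjusted p = 0.22). Of 11 skeletal muscle markers on the array, 10 were well above background in each source, with a summed Cy5 signal of 4706 to 9671 over the 15 arrays. The myoblast factor Myf5 was above background on 1 array, whereas Myod1, Myog and Pax7 were on all 15. Their Cy5 signals less background were 1915 to 3796 for Myod1, 1279 to 3194 for Myog and 552.8 to 1253 for Pax7. Their log2 ratios by source were near 0, at 0.14 to 0.20, 0.09 to 0.25 and 0.07 to 0.19. None of them was called among sources (limma F-test, adjusted p = 0.72, 0.058 and 0.085). Endothelial markers had a summed Cy5 signal of 1473 to 2590 in TAF-tib48, with 6 of 6 above background, and 594.9 to 1070 in the other sources. The rise was led by Emcn at a log2 ratio of 2.04 against 0.05 to 0.26. Cdh5 (0.74 against 0.01 to 0.26) and Tek (0.57 against 0.11 to 0.395) were also highest in TAF-tib48 and called among sources. Pecam1, Kdr and Vwf were not called (limma F-test, adjusted p = 0.43, 0.98 and 0.94). The part of endothelial markers in the TAF-tib48 values was not tested. In bulk RNA of this kind, fewer contractile cells and less contractile RNA per cell cannot be told apart.

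Values are log2 ratios of Cy5 to Cy3, and a difference of 2 sources is a log2 fold change. A probe was called where limma's p-value, adjusted by Benjamini-Hochberg over the 38522 probes, was under 0.05. Among the 5 sources, 15 of the 16 probes, at least 1 of each gene, were called by the moderated F-test; 43.4% of all probes tested were. TAF-el4 had the highest mean in 15 of the 16 probes and the lowest in 0, against 19.9% of all probes tested with their highest mean in TAF-el4. Its lead over the next source was called for Acta1, Acta2 A_52_P210078, Cnn1, Myl9 and both probes of Tagln and Tpm2. It was not called for Acta2 A_51_P450957, Actg2, Cnn2, Tpm1 A_52_P44949, both Cald1 probes and Acta2 A_52_P420504, which was saturated on 9 arrays. The lowest mean lay in TAF-tib6 for 6 probes, in TAF-tib42 for 6 and in TAF-tib48 for 4. The range from the lowest to the highest source mean had a median of 0.542 over the members and 0.161 over all probes tested. The slides carry 3 runs of 5 consecutive numbers, which cut across some sources, so the run was also fitted as a block. TAF-tib6, TAF-tib42 and TAF-tib48 share no run with NSF, and neither TAF-el4 nor TAF-tib42 shares one with TAF-tib6. The block compared these pairs only through the 1 TAF-el4 array, the 1 TAF-tib48 array, or both, of the second run. A call lost there therefore does not tell source and run apart. TAF-el4 was highest in 13 probes after median centring, 13 with the run of slides as a block, 11 from Cy5 alone and 12 to 16 with arrays left out.

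**Figure D1:**
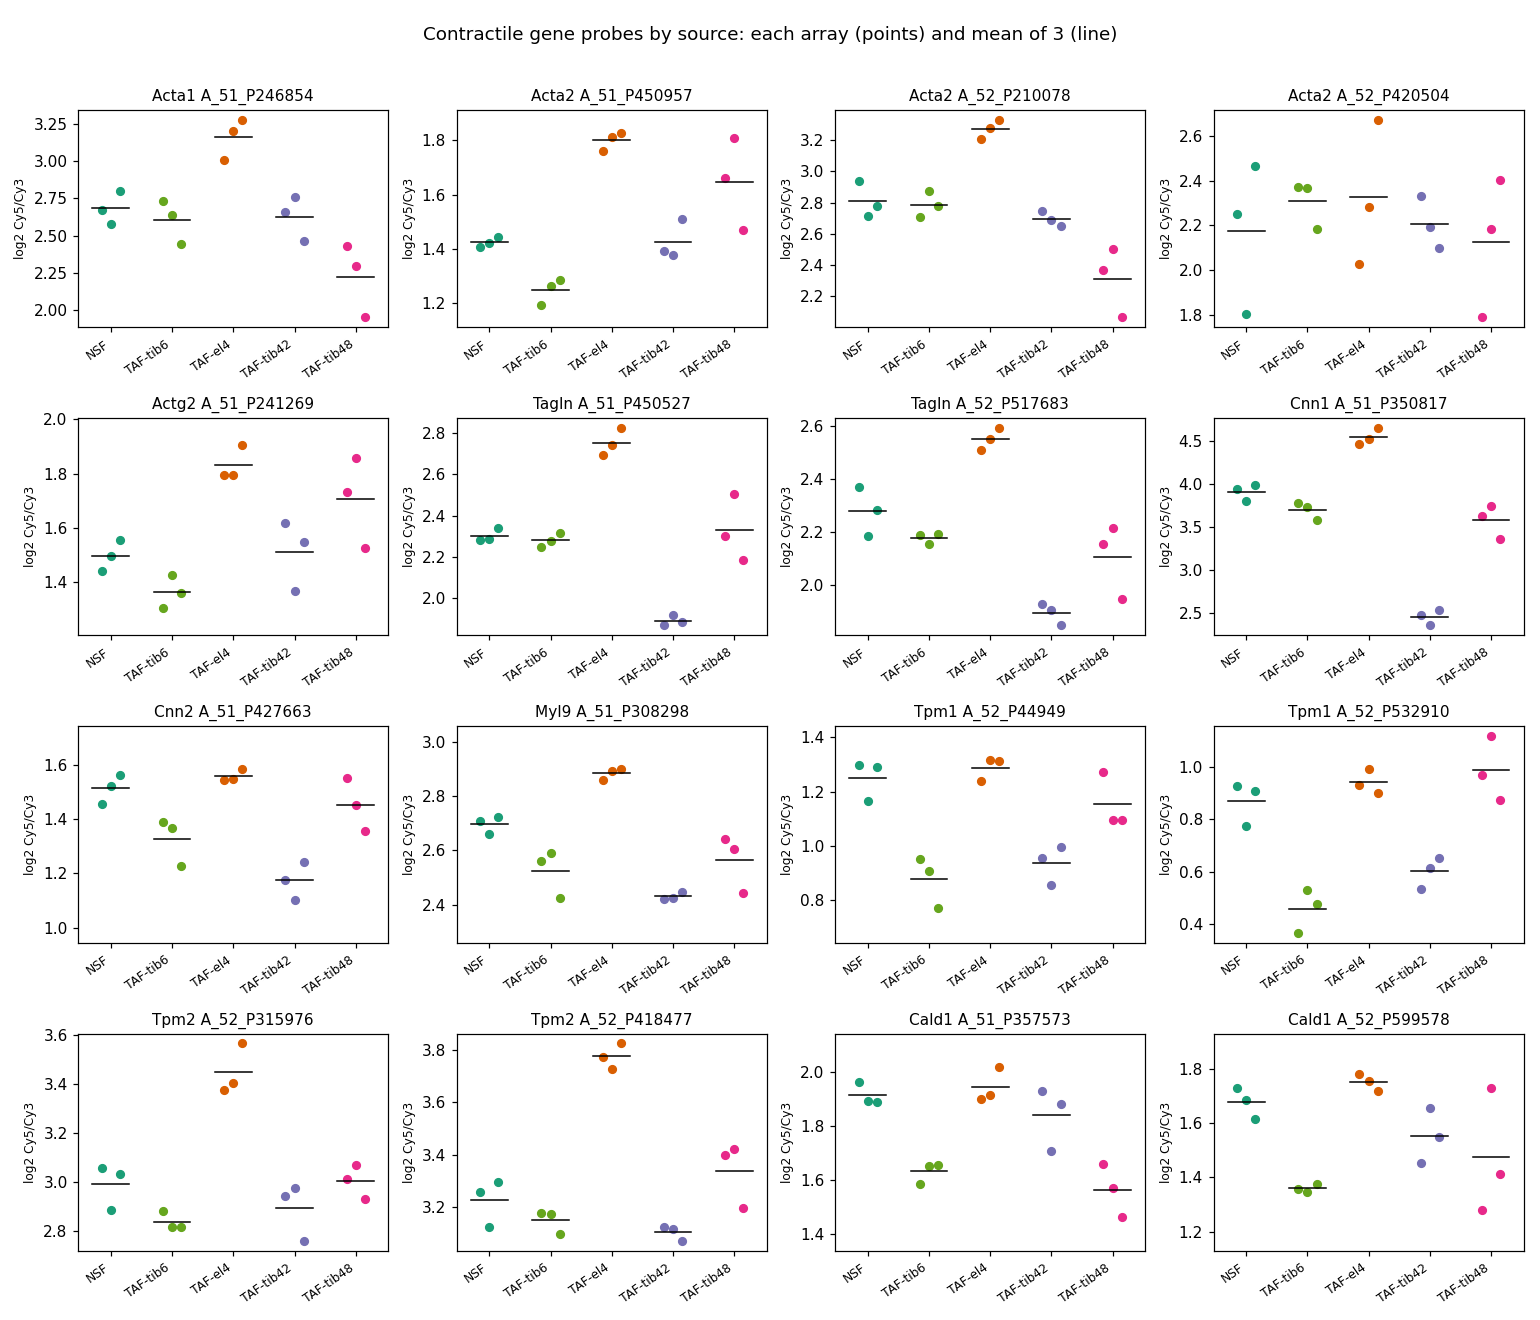
Log2 ratio of Cy5 (fibroblast) to Cy3 (reference) on each of the 15 arrays, by source, for the 16 contractile gene probes; points are arrays, lines are means of 3, and each panel has its own axis, which does not start at 0. The TAF-el4 points lie above all others for Acta1, Tagln, Cnn1, Myl9, Tpm2 and Acta2 A_52_P210078, Cnn1 in TAF-tib42 falls to between 2.36 and 2.54, and the Acta2 probe A_52_P420504, saturated on 9 arrays, shows overlapping sources.

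The actins form the filament itself. Acta2 was read by 3 probes that did not behave alike, and the brightest of them could not be used for folds. Its probe A_52_P420504 had a mean Cy5 signal of 55590 to 65298 and was saturated on 9 of 15 arrays: all 3 of NSF, all 3 of TAF-el4, 2 of TAF-tib48, 1 of TAF-tib42 and 0 of TAF-tib6. Its log2 ratios were 2.25, 1.80 and 2.47 in NSF, 2.37, 2.37 and 2.18 in TAF-tib6, 2.03, 2.28 and 2.67 in TAF-el4, 2.33, 2.19 and 2.10 in TAF-tib42, and 1.79, 2.19 and 2.40 in TAF-tib48. All 5 sources overlapped. The F-test gave an adjusted p of 0.74 and no pair of sources was called, which shows nothing about equality, because the saturated arrays hold only a lower bound.

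The other 2 Acta2 probes were saturated on no array. A_51_P450957, whose position spans 3255 bases of the genome and so crosses an intron, gave 1.41, 1.42 and 1.45 in NSF, 1.19, 1.26 and 1.28 in TAF-tib6, 1.76, 1.81 and 1.83 in TAF-el4, 1.39, 1.38 and 1.51 in TAF-tib42, and 1.66, 1.81 and 1.47 in TAF-tib48. TAF-el4 was highest and overlapped only with TAF-tib48, TAF-tib6 lay below all other arrays, and NSF, TAF-tib42 and part of TAF-tib48 lay between. A_52_P210078, which lies 10493 bases away and 363 from the saturated probe, gave 2.94, 2.72 and 2.78 in NSF, 2.71, 2.88 and 2.78 in TAF-tib6, 3.20, 3.28 and 3.33 in TAF-el4, 2.75, 2.69 and 2.65 in TAF-tib42, and 2.37, 2.50 and 2.06 in TAF-tib48. Here TAF-el4 lay above every other array and TAF-tib48 below every other array, with the remaining sources overlapping.

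Both of these Acta2 probes called TAF-el4 higher than NSF, by 0.38 (SE 0.0635, adjusted p = 2.2e-04) and 0.46 (SE 0.0833, adjusted p = 4.5e-04). They also called it higher than TAF-tib6, by 0.55 and 0.48, although with the run of slides as a block A_52_P210078 had an adjusted p of 0.17. For TAF-tib48 they opposed each other in 3 comparisons. Against NSF, A_51_P450957 was called higher by 0.22 (adjusted p = 0.014) and A_52_P210078 lower by 0.50 (adjusted p = 1.7e-04); against TAF-tib6 they were called at 0.40 and -0.48, and against TAF-tib42 at 0.22 and -0.38. With the run of slides as a block, both lost the calls against NSF (adjusted p = 0.49 and 0.098) and TAF-tib42 (0.17 and 0.13); median centring ended the call of the first against both sources, and scaled log ratios that of the second against NSF (adjusted p = 0.059). Without replicate 2 of TAF-tib48 the first probe lost both calls (adjusted p = 0.096 and 0.15), and without replicate 1 of TAF-tib48, or replicate 1 or 2 of TAF-tib42, that against TAF-tib42 (0.066 to 0.096). Both calls against TAF-tib6 held under each alternative run. A_51_P450957 minus A_52_P210078 was -0.66 ± 0.06 (SD, n = 3) in TAF-tib48 and between -1.61 and -1.14 on all arrays of the other sources, so the gap did not overlap.

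Acta1, the skeletal muscle alpha actin, gave 2.67, 2.58 and 2.80 in NSF, 2.73, 2.64 and 2.44 in TAF-tib6, 3.01, 3.20 and 3.27 in TAF-el4, 2.66, 2.76 and 2.46 in TAF-tib42, and 2.43, 2.29 and 1.95 in TAF-tib48 (probe A_51_P246854). TAF-el4 was above and TAF-tib48 below every array of the other sources. TAF-tib48 was 1.91-fold lower than TAF-el4, a difference of -0.93 (SE 0.106, adjusted p = 2.6e-06), and lower than NSF by 0.46 (adjusted p = 0.0034; 0.12 with scaled log ratios, 0.22 from Cy5 alone and 0.26 with the run of slides as a block). NSF, TAF-tib42 and TAF-tib6 followed each other within 0.06 and 0.02, with adjusted p = 0.751 and 0.909.

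Actg2, the gamma actin of visceral smooth muscle, gave 1.44, 1.49 and 1.56 in NSF, 1.30, 1.43 and 1.36 in TAF-tib6, 1.79, 1.79 and 1.91 in TAF-el4, 1.62, 1.37 and 1.55 in TAF-tib42, and 1.73, 1.86 and 1.53 in TAF-tib48 (probe A_51_P241269). TAF-el4 overlapped only with TAF-tib48, the widest source, which reached down into NSF and TAF-tib42; TAF-tib6 lay lowest and overlapped only with TAF-tib42. TAF-el4 was higher than TAF-tib6 by 0.47 (SE 0.0732, adjusted p = 1e-04; 0.077 with the run of slides as a block) and than NSF by 0.33 (adjusted p = 0.0025; 0.086 after median centring). No neighbours in its order of sources differed beyond their spread (adjusted p = 0.0912 to 0.918).

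The 4 measurable actin probes thus fell into pairs that crossed gene names. After centring each probe on its own mean over the 5 sources, Acta2 A_52_P210078 and Acta1 differed by a root mean square of 0.0398, and of 38521 other probes none was closer to either. Acta2 A_51_P450957 and Actg2 differed by 0.0284, the 4th closest probe to the former and the 9th closest to the latter. TAF-tib48 minus TAF-el4 was -0.96 and -0.93 in the first pair and -0.15 and -0.13 in the second. The coding sequences of muscle actins are very similar, and the files hold no probe sequence: which actin RNA each probe reads was not tested.

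**Figure D2:**
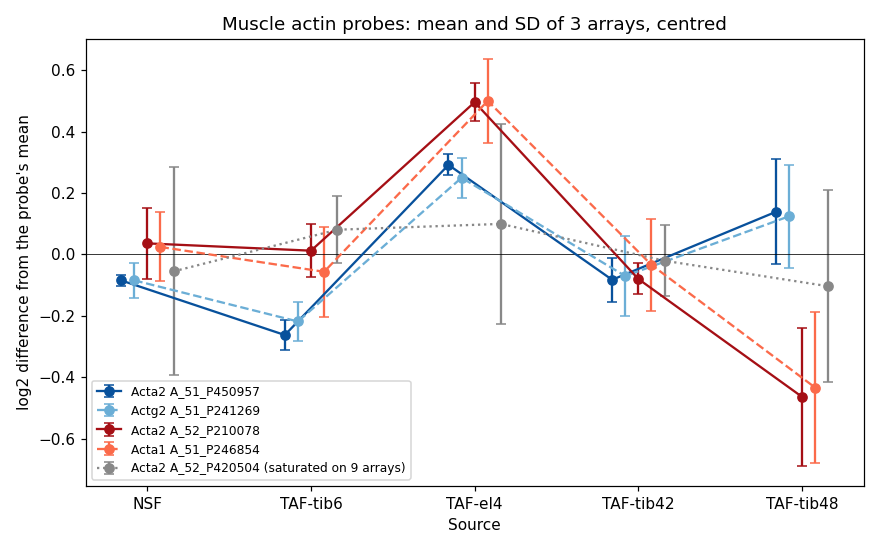
Source means of the muscle actin probes as log2 difference from each probe's mean over the 5 sources; points are means of 3 arrays, bars are SD, and lines join the points of 1 probe. Acta2 A_52_P210078 and Acta1 reach -0.46 and -0.43 in TAF-tib48, where Acta2 A_51_P450957 and Actg2 lie at 0.14 and 0.12, and the saturated probe has the widest bars in NSF and TAF-el4.

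The rule for pattern likeness took the brightest Acta2 probe, which is the saturated one. Among the genes closest to its nearly flat profile were Bclaf1, Ppia, Fah and Tomm6, at root mean square differences of 0.0089 to 0.0181 over the 5 source means. With the other Acta2 probes, chosen after the saturation was seen, they included Stmn1, Ahsa1, Tubb4a, Nop16 and Hdgf (0.013 to 0.0308) for A_51_P450957, and Acsl4, Lpcat3, Mfsd2a and Syce2 (0.0904 to 0.0999) for A_52_P210078. All 3 lists were drawn from 21605 probes.

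Among the actin-binding proteins, Cnn1, the calponin of smooth muscle, varied most between sources. Its log2 ratios were 3.95, 3.80 and 3.995 in NSF, 3.78, 3.74 and 3.58 in TAF-tib6, 4.47, 4.53 and 4.66 in TAF-el4, 2.48, 2.36 and 2.54 in TAF-tib42, and 3.64, 3.75 and 3.36 in TAF-tib48 (probe A_51_P350817). TAF-el4 lay above and TAF-tib42 below every array of every other source, with TAF-tib6 and TAF-tib48 overlapping between them. TAF-tib42 was 4.26-fold lower than TAF-el4, a difference of -2.09 (SE 0.0848, adjusted p = 1.4e-12), and this was the largest difference of any member in any pair. Of all probes tested, 99.7% had a smaller range of source means. TAF-tib42 was also 2.74-fold lower than NSF and 2.36-fold lower than TAF-tib6 (differences of -1.45 and -1.24, SE 0.0848 for both), and these calls held in each alternative run. TAF-tib48 was lower than NSF by 0.33 (adjusted p = 0.0067), but differed by 0.02 (adjusted p = 0.94) with scaled log ratios and by 0.03 (adjusted p = 0.88) from Cy5 alone; with the run of slides as a block the adjusted p was 0.17.

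Cnn2, the calponin of non-muscle cells, moved much less. Its arrays ranged from 1.104 to 1.58, and TAF-tib42 was lowest with no overlap with NSF, TAF-el4 or TAF-tib48 (probe A_51_P427663). TAF-tib42 was lower than TAF-el4 by 0.38 (SE 0.0555, adjusted p = 3.3e-05), a call lost from Cy5 alone, and than NSF by 0.34 (adjusted p = 1.5e-04). TAF-el4 and NSF differed by 0.05 (adjusted p = 0.722).

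Tagln encodes transgelin, or SM22, an actin cross-linker and early marker of smooth muscle. Probe A_51_P450527 gave 2.28, 2.29 and 2.34 in NSF, 2.25, 2.28 and 2.32 in TAF-tib6, 2.69, 2.74 and 2.83 in TAF-el4, 1.87, 1.91 and 1.88 in TAF-tib42, and 2.30, 2.50 and 2.18 in TAF-tib48; it was saturated on 1 TAF-el4 array. Probe A_52_P517683, 819 bases away, gave 2.37, 2.19 and 2.28 in NSF, 2.19, 2.16 and 2.19 in TAF-tib6, 2.51, 2.55 and 2.59 in TAF-el4, 1.93, 1.91 and 1.85 in TAF-tib42, and 2.16, 2.22 and 1.95 in TAF-tib48. With both probes TAF-el4 was above every other array, and TAF-tib42 was below every other array; NSF, TAF-tib6 and TAF-tib48 overlapped between them.

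TAF-tib42 was lower in Tagln than TAF-el4 by 0.87 and 0.65 (SE 0.0606 and 0.0596, adjusted p = 3.1e-09 and 1.1e-07). The first probe's TAF-el4 mean includes the saturated array and is a lower bound; without that array, replicate 1, the difference was -0.90 (adjusted p = 2.9e-08). TAF-tib42 was lower than NSF by 0.41 and 0.38. TAF-el4 was higher than NSF by 0.45 and 0.27 (adjusted p = 1.9e-05 and 0.0026), the second losing its call after median centring (adjusted p = 0.067). In 7 pairs both probes were called, in the same direction each time, and in 1 pair only the second was: TAF-tib48 minus NSF, -0.17 (adjusted p = 0.04), which turned to 0.03 with scaled log ratios and 0.05 from Cy5 alone.

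Cald1 encodes caldesmon, which binds actin, myosin and tropomyosin and restrains the myosin motor. Its probes, 20364 bases apart, ranged from 1.47 to 2.02 (A_51_P357573) and from 1.28 to 1.78 (A_52_P599578) over the arrays. TAF-tib6 was lower than NSF with both, by 0.28 and 0.32 (adjusted p = 0.0036 and 0.013), calls lost with the run of slides as a block (adjusted p = 0.49 and 0.13) and from Cy5 alone. TAF-tib48 was lower than TAF-el4 with both, by 0.38 and 0.28 (SE 0.0589 and 0.0792, adjusted p = 9.4e-05 and 0.015); from Cy5 alone both missed the threshold (adjusted p = 0.07 and 0.087). The second also missed it with scaled log ratios (adjusted p = 0.16), from the scanner's ratio (0.068), and without replicate 1 or 3 of TAF-tib48 (0.096 and 0.059) or replicate 1 of TAF-el4 (0.053). TAF-el4 minus NSF was 0.03 and 0.07 (adjusted p = 0.855 and 0.67).

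Tropomyosin lies along the actin filament and gates its contact with myosin. The Tpm1 probe A_52_P44949 gave 1.30, 1.16 and 1.29 in NSF, 0.95, 0.91 and 0.77 in TAF-tib6, 1.24, 1.32 and 1.31 in TAF-el4, 0.96, 0.86 and 0.997 in TAF-tib42, and 1.27, 1.096 and 1.09 in TAF-tib48. The second, A_52_P532910, 10767 bases away and crossing an intron (span of 1071 bases), gave 0.93, 0.77 and 0.91 in NSF, 0.37, 0.53 and 0.48 in TAF-tib6, 0.93, 0.99 and 0.90 in TAF-el4, 0.53, 0.62 and 0.65 in TAF-tib42, and 0.97, 1.12 and 0.87 in TAF-tib48. With both, TAF-tib6 and TAF-tib42 lay below every array of the other sources.

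The 2 Tpm1 probes were called in the same 6 pairs, in the same direction. TAF-tib6 was lower than NSF by 0.37 and 0.41 (SE 0.0598 and 0.0621, adjusted p = 2.7e-04 and 1.4e-04) and TAF-tib42 by 0.31 and 0.27; TAF-el4 minus NSF was 0.04 and 0.07 (adjusted p = 0.807 and 0.575). The differences from TAF-tib6 were lost with the run of slides as a block, for NSF (adjusted p = 0.54 and 0.33) and for TAF-el4 (0.25 and 0.053), as was that of A_52_P532910 between TAF-tib42 and NSF (0.35). A_52_P532910 was the 1 member probe with its highest mean in TAF-tib48, 0.05 above TAF-el4 (adjusted p = 0.646).

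Tpm2 was highest in TAF-el4 with both of its probes. Its probes A_52_P315976 and A_52_P418477, 965 bases apart, were at 3.37 to 3.56 and 3.73 to 3.83 in TAF-el4 and at 2.76 to 3.07 and 3.07 to 3.42 in the other sources, with no overlap. TAF-el4 was higher than NSF by 0.45 and 0.55 (SE 0.0639 and 0.0578, adjusted p = 3.2e-05 and 1.1e-06), than TAF-tib6 by 0.61 and 0.63, than TAF-tib42 by 0.56 and 0.67, and than TAF-tib48 by 0.44 with both. These 8 calls held in each alternative run. A_52_P418477 was also called higher in TAF-tib48 than in TAF-tib42, by 0.24 (adjusted p = 0.0084), and than in TAF-tib6, by 0.19 (adjusted p = 0.021; 0.094 with the run of slides as a block). Without replicate 2 of TAF-tib48 both were lost (adjusted p = 0.053 and 0.11), and without replicate 1 of TAF-tib48 or replicate 3 of TAF-tib6 the second was (0.088 and 0.086). The order below TAF-el4 was not resolved between neighbours (adjusted p = 0.165 to 0.921).

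Myl9, the regulatory light chain of smooth muscle and non-muscle myosin, ranged over the arrays from 2.42 to 2.90 (probe A_51_P308298). TAF-el4 lay above every other array and TAF-tib42 was lowest, overlapping with TAF-tib6 and TAF-tib48. The lead of TAF-el4 over NSF was 0.19 (adjusted p = 0.016), and 0.09 after median centring (adjusted p = 0.57). It was called in 23 of 29 alternative runs. TAF-tib42 was lower than TAF-el4 by 0.45 (SE 0.0522, adjusted p = 2.2e-06) and than NSF by 0.27 (adjusted p = 8.5e-04; 0.63 with scaled log ratios and 0.072 with the run of slides as a block).

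**Figure D3:**
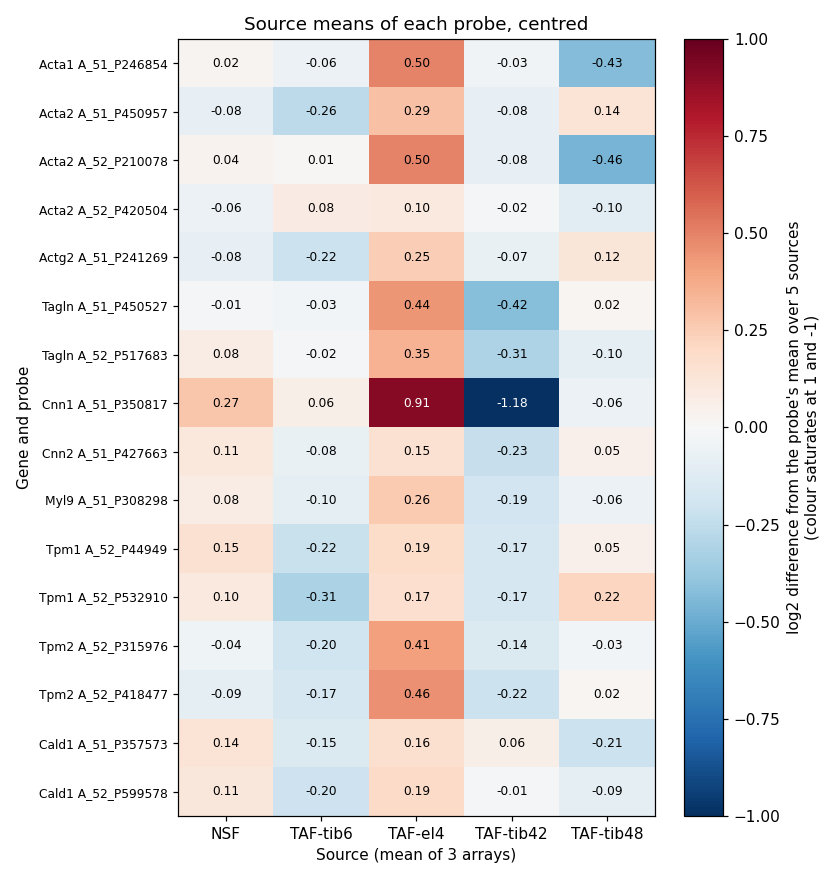
Source means of the 16 probes as log2 difference from each probe's mean over the 5 sources, red above and blue below, with colour limits at 1 and -1. The TAF-el4 column is positive in every row, from 0.10 to 0.91; the deepest blue is Cnn1 in TAF-tib42 at -1.18, and TAF-tib48 holds both signs.

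Counted by pairs of sources, 91 of the 160 probe values (16 probes in 10 pairs) were called, 48 of them among the 64 values that involve TAF-el4; over all probes tested 21% of the values were called. Pairs that share a source share its arrays. TAF-el4 was called higher than TAF-tib6 in 15 probes and lower in 0, where 11.6% of all probes tested were called higher and 8.95% lower. It was higher than NSF in 10 and lower in 0 (8.88% and 8.54% of all probes). TAF-tib42 was lower than TAF-el4 in 13 and higher in 0 (13.2% and 9.93%), and TAF-tib48 was lower in 10 and higher in 0 (13.5% and 10.1%). The median difference over the 16 probes was 0.47, 0.30, -0.42 and -0.35 in these 4 comparisons, and between -0.01 and 0.00 over all probes tested. With the run of slides as a block the calls were 6, 10, 13 and 10, where 5.44%, 14.7%, 14% and 8.88% of all probes were called. TAF-el4 and TAF-tib6 share no run of slides, and that fit compared TAF-tib48 with TAF-el4 through 1 array of each. It compared TAF-tib42 with TAF-el4 through 3 TAF-tib42 arrays and 1 TAF-el4 array.

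TAF-tib6 was lower than NSF in 6 probes and higher in 0 (6.62% and 4.41% of all probes), both sources being sensitive. With the run of slides as a block 0 calls were left, where limma had 1.32% of all probes called. TAF-tib6 and NSF share no run of slides, so that fit does not tell source and run apart. TAF-tib42 was lower than NSF in 7 and higher in 0 (13.0% and 11.2%), and lower than TAF-tib6 in 3 and higher in 2 (12.6% and 12.2%). TAF-tib48 was lower than NSF in 5 and higher in 2 (14.1% and 12.4%), higher than TAF-tib6 in 5 and lower in 2 (12.3% and 12.5%), and higher than TAF-tib42 in 8 and lower in 3 (7.66% and 6.49%).

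Several of these splits changed with the normalization. Scaled log ratios rescale each array, whereas median centring replaces the loess step within arrays and rescales none. TAF-tib48 was higher than NSF in 6 probes and lower in 0 with scaled log ratios, and higher in 0 and lower in 8 after median centring, where 25.2% and 25% of all probes were called in either direction. TAF-tib42 was higher than TAF-tib6 in 5 and lower in 2 with scaled log ratios, and higher in 0 and lower in 3 after median centring (24.2% and 18.1% of all probes). TAF-tib48 was higher than TAF-tib6 in 9 and lower in 1 with scaled log ratios (24.2% of all probes), and higher than TAF-tib42 in 6 and lower in 1 after median centring (9.9%). Scaling multiplied the arrays by factors of 0.944 to 1.08, and the median size of a log2 ratio was 2.18 over the members and 0.152 over all probes tested. In the 4 comparisons with TAF-el4, every call with scaled log ratios or after median centring had the direction given above.

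**Figure D4:**
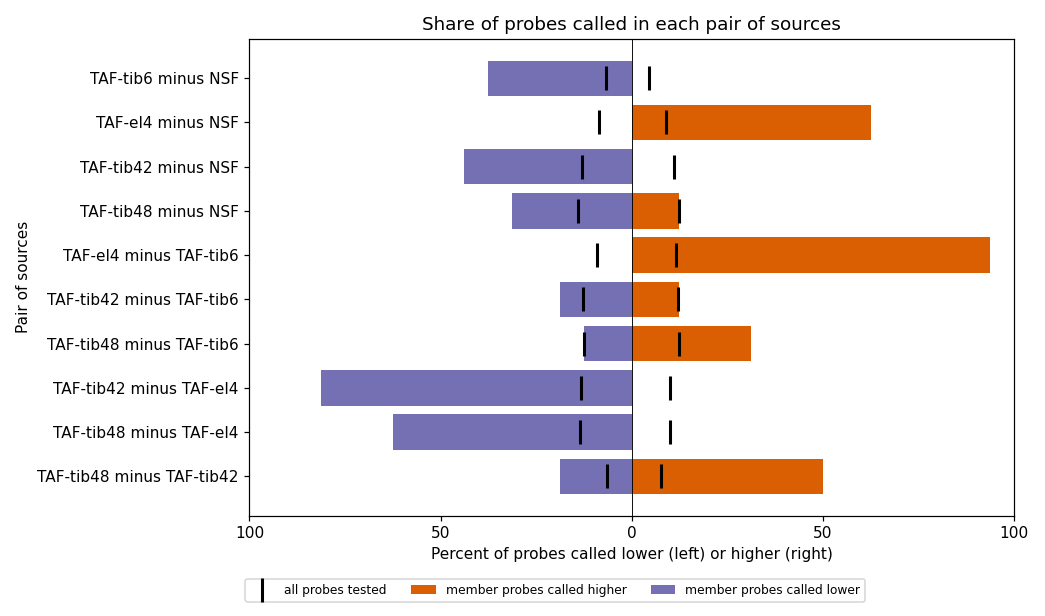
Percent of the 16 contractile gene probes called lower (left, purple) or higher (right, orange) in each pair of sources, with black ticks for the percent of all 38522 probes tested. The 4 pairs with TAF-el4 have bars on 1 side only, up to 15 of 16 probes. TAF-tib6 minus NSF and TAF-tib42 minus NSF also have bars on 1 side only, and TAF-tib48 minus NSF has bars on both sides.

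The arrays of TAF-tib48 spread more in these genes than the others. The median SD of the 16 probes was 0.151 in TAF-tib48 and 0.0559 to 0.0796 in the other sources, against 0.0475 to 0.0594 over all probes tested. Replicate 3 was the lowest of the 3 TAF-tib48 arrays in 14 of 16 probes, and in 35.5% of all probes tested. Without it 95 values were called in place of 91 (20.9% and 21% of all values), with 9 for TAF-tib48 against TAF-el4 and 7 for TAF-tib48 against NSF. Tagln A_52_P517683 then lost its call against NSF (adjusted p = 0.22). Replicate 1 of TAF-el4 was the lowest of its source in 13 probes, and without it 87 values were called (18.9% of all values).

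Resistant and sensitive sources were compared on the 5 source means, so that a source and not an array was the unit. No member was called: of 38522 probes limma called 1 (0.00260%), and of 3666 probes with an unadjusted p under 0.05, 0 were members. Adjusted p-values of the members ran from 0.543 to 0.991. The difference was 0.29 for Acta2 A_51_P450957 (SE 0.123; 1.62 ± 0.19, SD, n = 3 resistant sources, and 1.34 ± 0.13, n = 2 sensitive sources) and 0.25 for Actg2 (SE 0.105, adjusted p = 0.543). These were the 2 probes with each resistant mean above both sensitive means, an arrangement found in 14.3% of all probes. Cnn1 stood at -0.28 with an SE of 0.595, since the resistant sources held both its highest and its lowest mean.

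The other genes of the programme were read from 3 lists of 64 genes in all, each gene by its brightest probe. Of 8 TGF-beta inputs and readouts, 7 were called among the 5 sources (limma F-test), against 43.4% of all probes tested. In TAF-el4 3 were higher and 2 lower than in NSF (8.88% and 8.54% of all probes). In TAF-tib42 0 were higher and 6 lower (11.2% and 13.0%), and the counts were the same in TAF-tib48 (12.4% and 14.1%). Connective tissue growth factor (Ctgf), a common readout of TGF-beta, was 3.76 in TAF-el4, 3.07 in NSF, 2.97 in TAF-tib6, 2.72 in TAF-tib42 and 1.70 in TAF-tib48, with TAF-tib48 lower than TAF-el4 by 2.07 (SE 0.0947, adjusted p = 1.5e-11). The receptor genes Tgfbr1 and Tgfbr2 lay highest in NSF (1.07) and TAF-tib6 (1.46), and TAF-tib48 was lower than NSF in both, by 0.75 and 0.99. The ligand Tgfb1 was not called among the sources by the F-test (adjusted p = 0.084), though it was called higher in TAF-el4 than in NSF, by 0.23 (adjusted p = 0.025).

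Of 18 measured regulators of smooth muscle genes, 10 were called among the sources, against 43.4% of all probes tested. Srf differed little, with means of -0.06 in TAF-tib6 to 0.16 in TAF-el4 (adjusted p = 0.0044), and Myocd, its cofactor in smooth muscle, had a range of 0.03 (adjusted p = 0.98). The Cy5 signal of Myocd was weak, at 63.3 to 149.5 above background, so a difference in it could be missed. Smad7, the inhibitory Smad induced by TGF-beta, was 1.04 in TAF-el4, 0.51 in NSF, 0.29 in TAF-tib6, 0.04 in TAF-tib48 and 0.01 in TAF-tib42. Klf4, a repressor of smooth muscle genes, ran from 1.69 in TAF-tib6 to 2.43 in TAF-tib48, and TAF-tib48 exceeded TAF-el4 by 0.53 (adjusted p = 3.6e-07). Foxf2 (highest in NSF, lowest in TAF-tib6) and Gata6 (highest in TAF-tib48, lowest in TAF-tib42) had ranges of 1.82 and 1.101.

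Of 33 other contractile and stress fibre genes, 27 were called among the sources, against 43.4% of all probes tested. TAF-tib42 was higher than TAF-el4 in 2 and lower in 18 (9.93% and 13.2% of all probes), with a median difference of -0.25. Mylk, the kinase of the light chain that Myl9 encodes, gave 1.71, 1.54 and 1.58 in NSF and -0.67, -0.57 and -0.72 in TAF-tib42, a difference of -2.26 (SE 0.0519, adjusted p = 7e-16), and its means in TAF-tib6, TAF-el4 and TAF-tib48 were 1.38, 1.11 and 1.14. Myh11, the smooth muscle myosin heavy chain, was also lowest in TAF-tib42 (0.08) and highest in NSF (1.19), with TAF-el4 at 1.04. TAF-tib42 was thus low in Cnn1, Tagln, Mylk and Myh11, whereas Ppp1r14a, an inhibitor of myosin phosphatase, was highest there (1.74, against 0.70 to 1.11). Actc1, the cardiac alpha actin, was highest in TAF-el4 like most members, at 2.40 against 1.90 to 2.21 (adjusted p = 2e-04), and was added after its values were seen. Cdh11, a cadherin of fibroblasts, was highest in NSF (1.49) and lowest in TAF-tib48 (0.53). Resistant against sensitive, 0 genes of the 3 lists were called.

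**Figure D5:**
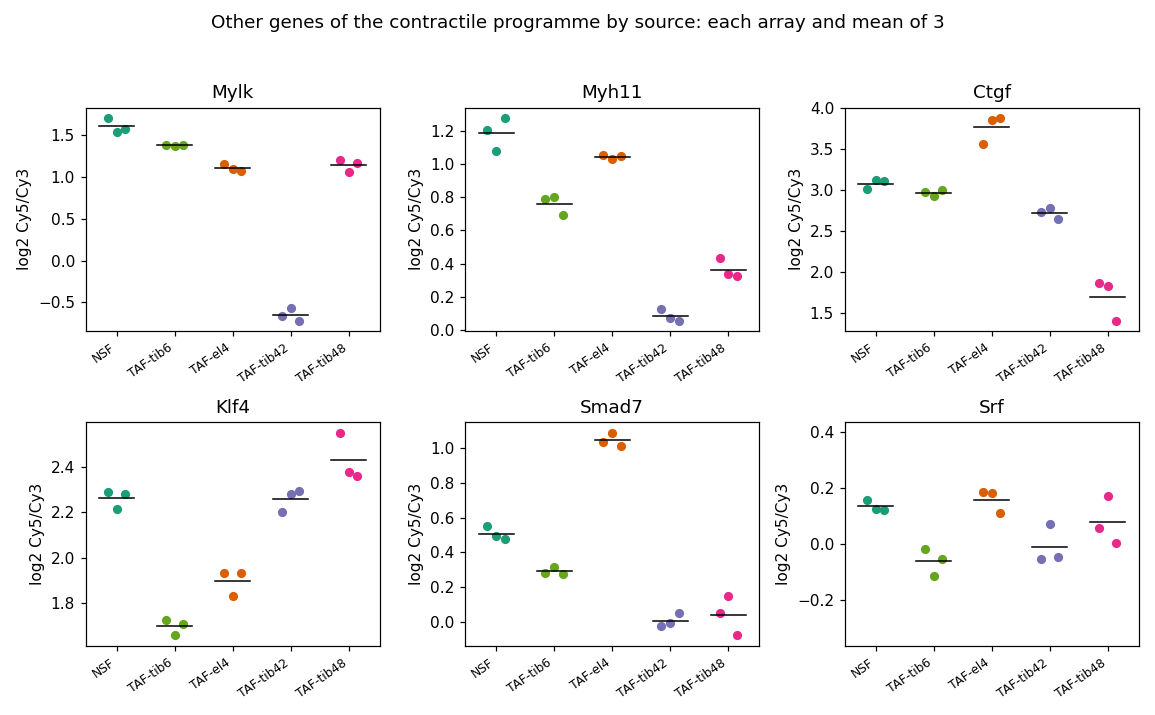
Log2 ratio of Cy5 to Cy3 on each array, by source, for 6 other genes of the contractile programme; points are arrays, lines are means of 3, and each panel has its own axis, which does not start at 0. Ctgf and Smad7 are highest in TAF-el4, Klf4 is highest in TAF-tib48, Mylk and Myh11 are lowest in TAF-tib42, and Srf stays between -0.11 and 0.19.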

How the data were processed

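Fibroblast RNA (Cy5) and reference RNA (Cy3) of 15 arrays were read from the deposited scanner output, whose intensity values were extracted by the authors with Agilent Feature Extraction 8.5.1.1, per the file headers; a label's protocol gives 9.5. Per the file headers, the scanner software also wrote log10 ratios after its own background subtraction and dye normalization. The authors' deposited value table holds log2 ratios of Cy5 to Cy3 that match the scanner ratios, and served as an alternative. Dyes were not swapped, so a dye effect shared by all arrays cancels only in differences between sources.

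With limma 3.58.1 in R 4.3.3, intensities were corrected by normexp (offset 50) and normalized by loess within arrays, with control spots at weight 0. Spots flagged as outliers were left out, saturated spots kept, and spots of a probe averaged. Probes well above background in Cy5 on all 3 arrays of at least 1 source were tested (38522 of 41174). Means of the 5 sources were fitted to all 15 arrays and compared in 10 pairs and by a moderated F-test; resistant and sensitive sources were compared on the 5 source means. Adjustment was by Benjamini-Hochberg across every probe tested, at a threshold of 0.05. The procedure was tested on simulated data.

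Of all probes, 22072 were named through their accession, 4353 from the description and 14749 by the name in the file. All members and all their probes were named; of the other lists, the genes with the widest range of source means and a few, such as Srf and Myocd, set by name. The members and lists were chosen with earlier results of these data known. Arrays with the same replicate number did not deviate together (correlations of -0.188 to 0.160, over 0.1 in 2 pairs), so numbers were not taken as pairs. Alternatives changed the background correction, normalization, scaling, channel, filter, probes, block and arrays used. No source used here states the genome build of the probe positions, so only spans and distances are printed. A few genes that the naming rule gave are not reported here.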

Additional observations from a re-analysis of the deposited data

How the results depend on the processing

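Of the 91 called member values, none reversed and stayed called under any alternative. Totals were 91 with no background subtraction, 91 with no filter, 95 after median centring, 89 with scaled log ratios, 79 from the scanner's ratio and from the authors' table, 76 from Cy5 alone, 59 with the run of slides as a block, and 54 of 100 with 1 probe per gene; leaving arrays out gave 73 to 95. Over all probes tested 21% of values were called in the main run. The shares were 21.2% with no background subtraction, 19.7% with no filter, 18.7% after median centring and 20.4% with scaled log ratios. They were 18.4% from the scanner's ratio and from the authors' table, 17.9% from Cy5 alone, 9.78% with the block and 21.2% with 1 probe per gene. Leaving arrays out gave 13.3% to 20.9%. With the replicate number as a block, 88 were called (20.2% of all values). By the F-test 9 of 10 genes were called with 1 probe per gene.

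The percentages here are the shares of all probes tested that were called in the same pair. TAF-tib6 minus NSF had 6 calls (11%), but 12 after median centring (19.5%). It had 3 from the scanner's ratio, the authors' table or scaled log ratios (9.43% to 9.48%) and 2 from Cy5 alone (14.2%). With the run of slides as a block it had 0 (1.32%), and 2 to 8 with arrays left out. TAF-tib42 minus NSF had 7 in the main run (24.2%) and 12 after median centring (28%). TAF-tib48 minus NSF had 7 (26.5%), 1 with the run of slides as a block (6.44%) and 3 to 8 with arrays left out. TAF-el4 minus TAF-tib6 had 15 (20.6%) and 6 with that block (5.44%). TAF-tib42 minus TAF-tib6 had 5 (24.8%), 3 after median centring (18.1%) and 2 with the block (9.75%). It had 3 to 6 with arrays left out, 3 without replicate 1 of TAF-tib42 or of TAF-tib6. TAF-tib48 minus TAF-tib42 had 11 (14.2%), and 7 after median centring (9.9%) and from the scanner's ratio or the authors' table (11.4%). It had 6 with the block (8%) and 5 to 12 with arrays left out, 7 without replicate 2 of TAF-tib42. With arrays left out, the share over all 10 pairs together was 13.3% to 20.9%. With 1 probe per gene, where fewer probes stand for the members, calls were 6 for TAF-el4 minus NSF (17.6%) and 4 for TAF-tib48 minus NSF (26.3%). Against TAF-tib6 they were 9 for TAF-el4 (20.8%), 3 for TAF-tib42 (25%) and 3 for TAF-tib48 (24.8%). Against TAF-el4 they were 8 for TAF-tib42 (23.2%) and 6 for TAF-tib48 (24%), and TAF-tib48 minus TAF-tib42 had 6 (14.4%). Beyond these constructions, the cause was not tested. No member was called between resistant and sensitive sources under any alternative. With the 15 arrays and source as a random block, limma called 1830 of the 38522 probes tested, and the smallest adjusted p of a member was 0.0918. Saturation on 9 arrays limits the brightest Acta2 probe.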
